A study of Mus musculus with 50 samples.

Results

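The peaks described here are sites of N6-methyladenosine (m6A) signal in the early coding sequence of messages from activated mouse B cells. They were chosen from the authors' table of de novo m6A peaks by annotation alone: the table places the peak in the coding sequence, at most 50 nt from a consensus motif on either side, and at most 500 nt from the start of the transcript. This gave 1266 of the 32009 peaks in the table, on 1150 of its 14219 transcripts. A separate class, transcript start, takes the peaks up to position 199, so the chosen peaks ran from position 200 to 500. Scores and p-values were not used to choose them.

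m6A is adenosine carrying a methyl group, the most studied internal modification of messenger RNA. It is written on nascent RNA by a complex in which METTL3 is the catalytic subunit and METTL14 its partner, mostly at adenosines in a short preferred sequence. YTH-domain proteins such as YTHDF2, which promotes decay of marked messages, and IGF2BP proteins such as IGF2BP3, which is tied to message stability, read the mark. In mammalian messages m6A is known to be dense around stop codons and in long internal exons. Adenosine next to the cap can carry a related mark, m6Am, which METTL3 does not make and which antibodies to m6A also recognise. The early coding sequence lies between these well-known zones.

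The series holds 50 libraries. The 12 m6A-seq libraries came from B cells activated overnight with LPS, in 4 groups of 3: RNA enriched with anti-m6A antibody (IP) and RNA taken before enrichment (Input), each from AIDcre Mettl3-flox/+ and AIDcre Mettl3-flox/flox mice. Both genotypes carry AIDcre, a recombinase expressed under control of AID, an enzyme of antibody diversification that B cells induce on activation. The flox/+ cells can lose 1 copy of Mettl3 and the flox/flox cells both; how much METTL3 was gone after overnight LPS was not measured here. The strain label of the m6A-seq libraries counts up by library from C57BL/7 to C57BL/18, while the 38 expression libraries all give C57BL/6. Those 38 came from germinal center B cells and were not used here.

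Every peak carries a score for each arm in 2 versions, with replicates already combined by the authors. Its arms are named test and control, with genotypes left out. Here test was taken to be flox/+ and the other, called the comparator arm below, flox/flox, because the authors' list of METTL3-dependent peaks holds peaks with the higher test arm. Every direction between genotypes rests on that reading. How a score is computed is not stated, so differences are given in score units, test minus comparator arm. The table gives no reads per peak, so depth is unknown and a single peak has no spread between replicates. Its p-values are the authors', and where the labels do not say that replicates were separate mice they may measure technical spread only. No test between sets of peaks was made, since all peaks come from the same pooled libraries. Intervals on shares are exact Clopper-Pearson 95% intervals and intervals on medians are exact order-statistic intervals. These intervals reflect counting error alone, and neighbouring peaks on a message are not independent of each other.

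Early coding-sequence peaks near the motif scored somewhat higher in the test arm. Their median first-version scores were 2.16 (test arm) and 2.02 (comparator arm), and the difference per peak had a median of 0.19 (0.14 to 0.26). The quartiles of that difference were -0.30 and 0.78, so both signs were common. Second-version scores had medians of 3.09 and 2.55, and the difference per peak had a median of 0.51 (0.43 to 0.55). A higher test arm was found for 58.7% of these peaks by first-version scores and for 70.8% by second-version scores. Over all 32009 peaks the corresponding shares were 61.7% and 70.0%, with median differences of 0.25 and 0.49. The early peaks were thus close to the whole table in their difference between arms on both versions.

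The authors' METTL3-dependent list held 332 of the 1266 peaks, or 26.2% (23.8% to 28.7%), against 28.1% of all peaks in the table. The other 10357 coding-sequence peaks had 26.1% listed (25.2% to 26.9%). A listed peak is one with an unadjusted p under 0.1 on either version and a higher test arm on either version, a rule that matched the list for every peak of the table. Among the early peaks, 132 of the 1259 with a first-version p had p under 0.1 with the test arm higher (10.5%), against 14.2% of all peaks. The comparator arm was higher at the same threshold for 61 (4.85%), against 6.12% of all peaks. The second-version counts were 261 of 1266 (20.6%) and 43 (3.40%), against 21.3% and 3.86% of all peaks. The first-version share with the test arm higher had an interval of 8.85% to 12.3%, below its background, and the intervals of the other 3 shares held theirs.

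No early peak passed correction over the whole table. After Benjamini-Hochberg adjustment of the authors' p-values, an adjusted p under 0.1 was reached by 0 of the 1259 (first version) and 0 of the 1266 (second version). Of all peaks 0% passed with first-version values and 0.00312%, a single peak, with second-version values. The smallest adjusted values among the early peaks were 0.351 and 0.219. Without adjustment, 70 early peaks (5.56%) had p under 0.05 on the first version with the test arm higher, against a background of 8.18%. With the comparator arm higher there were 28 (2.22%), against 3.35%. The second-version counts were 160 of 1266, against 12.9% of all peaks, and 27 of 1266, against 2.01%. The early peaks are therefore described as a set, and no single listing among them held after correction.

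The 2 score versions did not always point the same way. Of the 332 listed early peaks, 78 met the p threshold with a higher test arm on both versions, 54 on the first alone and 183 on the second alone. The other 17 combined a p from one version with a direction from the other. The sign of the difference was shared by both versions in 918 of the 1266 peaks (72.5%), against 77.0% of all peaks. Another 246 peaks were below 0 on the first version and above 0 on the second, and 95 were the reverse. Across the early peaks the differences of the versions had a Pearson r of 0.66 and a Spearman rho of 0.63, as a description over 1266 peaks that come from the same libraries. The remaining 7 peaks had a score of 0 in both arms on the first version, had no p there and had no call in any replicate.

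**Figure D1:**
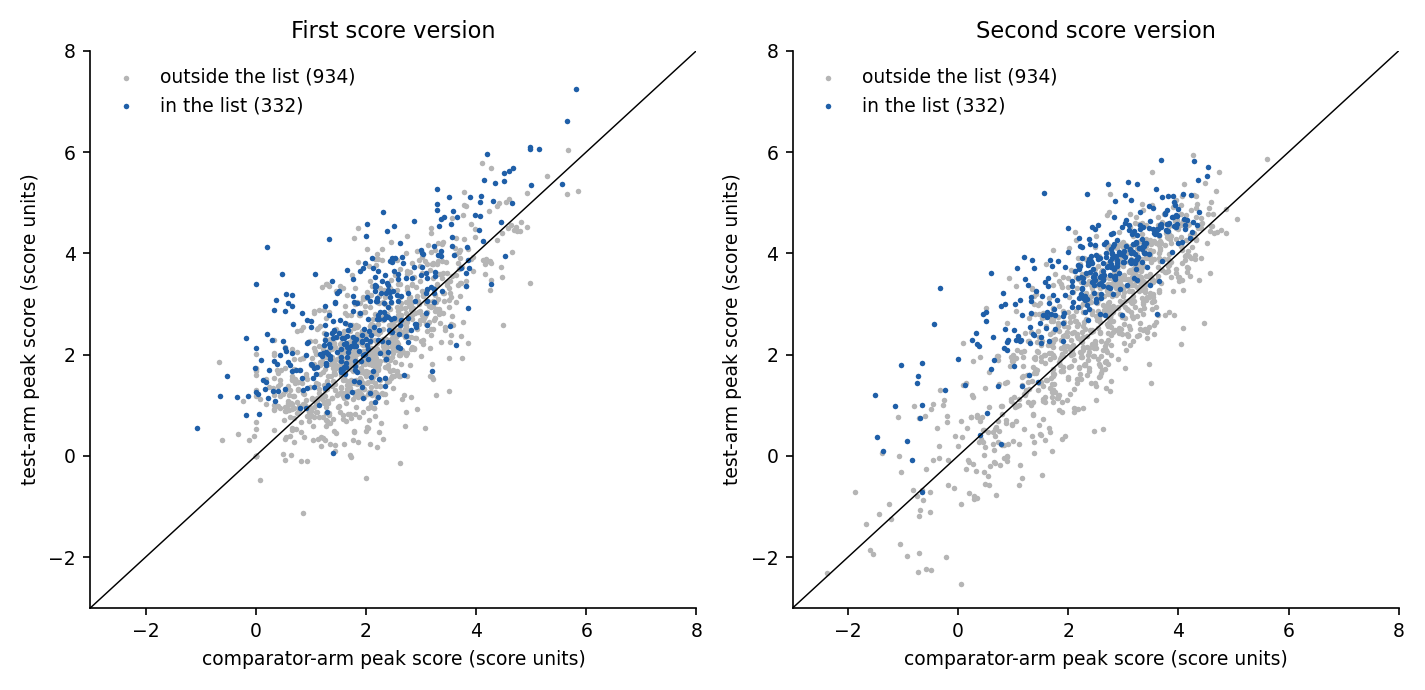
Peak scores of the 1266 early coding-sequence peaks near the motif, comparator arm on the x axis and test arm on the y axis, in score units, with the first version on the left and the second on the right. Each point is 1 peak, blue for the 332 in the METTL3-dependent list and grey for the other 934, and the line marks equal scores. On the second version 70.8% of the points lie above the line.

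Scores in the arms rose and fell together from peak to peak, as the plot of scores shows, with a Pearson r of 0.71 (first version) and 0.81 (second version) over the same 1266 peaks. Stronger early peaks were listed more often. When the peaks were ordered by the mean first-version score of both arms and divided into 4 equal groups, 18.0% of the weakest group (13.9% to 22.7%) and 33.4% of the strongest (28.3% to 38.9%) were listed. The middle groups had 25.9% and 27.5%. The median first-version difference was 0.15 in the weakest group and 0.34 in the strongest, and 0.43 and 0.53 on the second version. The order itself rests on first-version scores, so that version's differences are not independent of it.

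Position within the early window was a first axis along which these peaks varied. From position 200 to 249, 174 peaks had a median first-version difference of -0.06 and 37 were listed (21.3%, 15.4% to 28.1%). From 450 to 500, 237 peaks had a median of 0.34 and 75 were listed (31.6%, 25.8% to 38.0%). The steps between did not rise evenly. The first-version medians in the 4 bins between them were 0.24, -0.002, 0.19 and 0.33, and 26.2%, 22.0%, 31.3% and 23.9% of the peaks were listed. The 6 second-version medians from the first bin to the last were 0.17, 0.41, 0.40, 0.61, 0.54 and 0.67. The intervals of the listed share overlapped between the first and the last bin. Just past the window, from 501 to 600 nt, 490 peaks of the same kind had a median of 0.26 on the first version and 30.8% listed (26.8% to 35.1%).

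**Figure D2:**
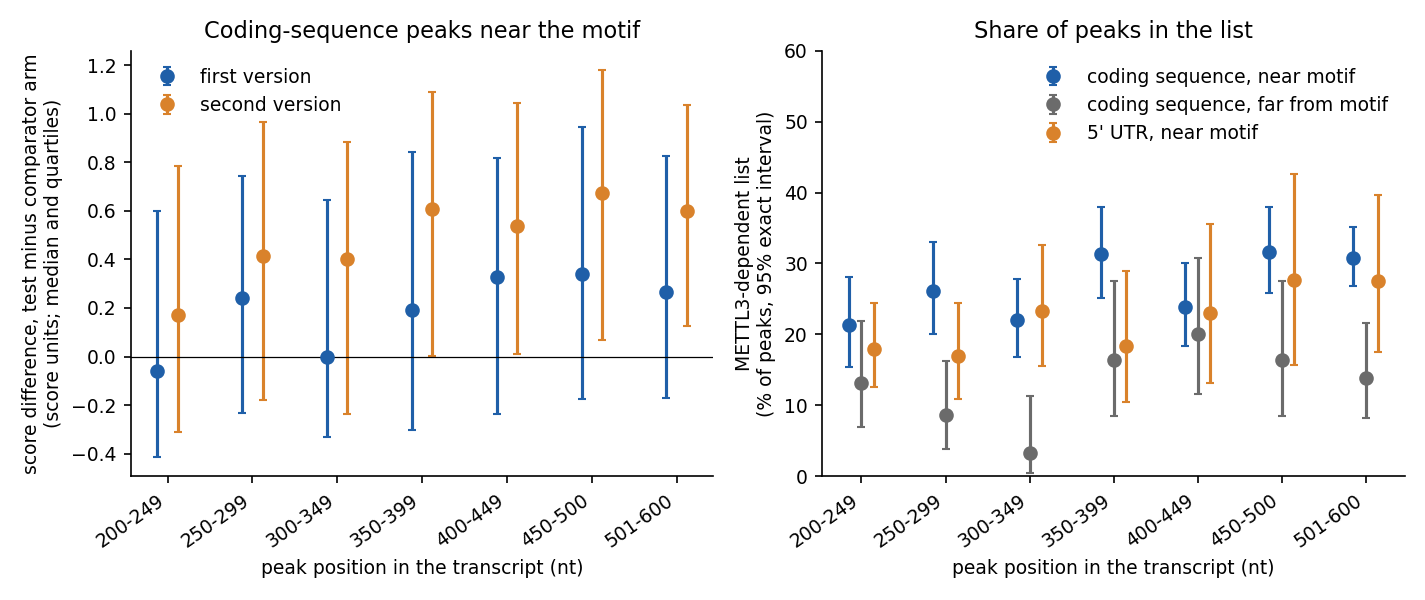
Left, score difference of coding-sequence peaks within 50 nt of the motif by position in the transcript in nt, with the median as a point and the quartiles as bars, for the first version (blue) and the second (orange). Right, share of peaks in the METTL3-dependent list in the same bins, with exact 95% intervals, for coding-sequence peaks near the motif (blue), coding-sequence peaks more than 50 nt from it (grey) and 5' UTR peaks near it (orange). The bins from 200 to 500 nt hold the 1266 peaks described; the first bin has a median of -0.06 on the first version and the bin from 450 to 500 nt one of 0.34.

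Distance to the motif was a second axis. Which letters the motif has is not stated in the table, so its likeness to the sequence METTL3 prefers could not be checked. The median distance was 14 nt, and 44 peaks lay exactly at the motif. Of the 325 peaks within 5 nt, 108 were listed (33.2%, 28.1% to 38.6%). The share was 28.9% at 6 to 10 nt, 24.6% at 11 to 20 nt, 22.3% at 21 to 30 nt, 17.6% at 31 to 40 nt and 22.3% at 41 to 50 nt (15.0% to 31.2%). The second-version median difference went from 0.64 within 5 nt to 0.24 at 31 to 40 nt and 0.30 at 41 to 50 nt. The first-version median went from 0.31 to 0.05 between the first and the last of these bins. Thus the peaks nearest the motif had the higher listed share and the larger difference, except for the last bin, where the listed share was above that of its neighbour.

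Peaks on the 2 sides of the motif had overlapping intervals. The 609 peaks with a distance below 0 had 26.6% listed (23.1% to 30.3%) and the 613 with a distance above 0 had 24.6% (21.3% to 28.2%). Their second-version medians were 0.50 and 0.47. The 44 peaks at distance 0 had 43.2% listed, with an interval of 28.3% to 59.0% that overlaps that of the peaks below 0 and lies above that of the peaks above 0.

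**Figure D3:**
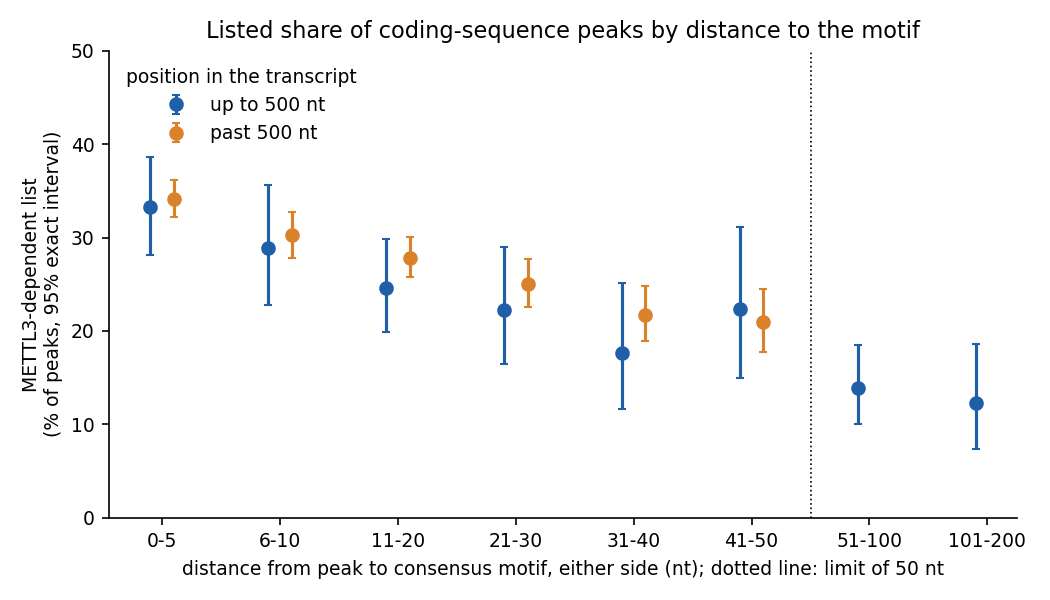
Share of coding-sequence peaks in the METTL3-dependent list by distance to the consensus motif in nt, for peaks up to 500 nt into the transcript (blue) and past 500 nt (orange), with exact 95% intervals. The dotted line marks the limit of 50 nt. Blue points go from 33.2% within 5 nt to 17.6% at 31 to 40 nt, and the orange points from 34.1% to 21.8% over the same bins.

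Taken at the same distance from the motif, early and later coding-sequence peaks had similar listed shares. Past 500 nt, 34.1% of 2261 peaks within 5 nt (32.2% to 36.1%) and 21.8% of 795 at 31 to 40 nt (18.9% to 24.8%) were listed. The early share lay within 5 percentage points of the later one in each of the 6 bins, and the intervals overlapped in each. It was the lower of the pair in every bin up to 40 nt. Over all distances up to 50 nt, 28.5% of the 7938 later peaks were listed (27.6% to 29.6%), with medians of 0.27 and 0.55 on the 2 versions. The test arm was higher for 65.5% of them on the first version (64.5% to 66.6%) and 77.6% on the second (76.6% to 78.5%). The early shares were lower, at 58.7% (55.9% to 61.4%) and 70.8% (68.2% to 73.3%). Those later peaks also lay somewhat nearer the motif, at a median of 12 nt. At equal distance, the share with a higher test arm was still lower early in each of the 6 bins, on both versions. On the first version it was 61.8% against 69.0% within 5 nt and 51.8% against 58.4% at 41 to 50 nt. The first-version intervals overlapped in each bin. On the second version they were apart at 11 to 20 nt, 69.2% against 77.0%, and overlapped in the other bins.

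Read together, the axes had the lowest listed share and the lowest medians in 1 corner, in bins chosen after seeing the data. Of the 225 peaks at 200 to 300 nt and 11 to 50 nt from the motif, 41 were listed (18.2%, 13.4% to 23.9%), with medians of -0.02 and 0.13 on the 2 versions. At the same positions but within 10 nt of the motif, 48 of 144 were listed (33.3%, 25.7% to 41.7%), with medians of 0.32 and 0.60. From 401 to 500 nt the shares were 34.2% of 193 peaks within 10 nt and 22.5% of 258 farther away (17.5% to 28.1%). From 301 to 400 nt they were 27.6% of 192 (21.4% to 34.5%) and 26.0% of 254 (20.7% to 31.8%). The interval of the corner overlapped those of the 22.5%, the 27.6% and the 26.0%. First-version medians at 301 to 400 nt had the reverse order, 0.10 within 10 nt and 0.15 farther away, while second-version medians were 0.56 and 0.37. From 401 to 500 nt the medians were 0.40 and 0.28 on the first version and 0.74 and 0.46 on the second. Within 10 nt of the motif, the peaks at 200 to 300 nt and those at 401 to 500 nt thus had nearly the same listed share.

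Early coding-sequence peaks far from the motif looked different. The 454 peaks in the same window but more than 50 nt from the motif had 59 listed (13.0%, 10.0% to 16.4%), an interval that lies wholly below that of the peaks near it. Their median difference was -0.08 (-0.17 to 0.06) by first-version scores, and 0.05 (-0.07 to 0.12) by second-version scores. More calls in the comparator arm were found for 39.2% of these 454 peaks and more in the test arm for 30.2%, where all peaks had 29.3% and 38.0%. At least 2 test-arm calls, however, were recorded for 18.5% and at least 2 comparator-arm calls for 16.7%, against 29.4% and 24.1% of all peaks. At p under 0.1 on the first version, 5.30% had the higher test arm and 9.05% the higher comparator arm, where the peaks near the motif had 10.5% and 4.85%. The second-version shares were 7.49% and 7.05%, against 20.6% and 3.40% near the motif. At the edge of the rule, the 49 peaks at 46 to 50 nt had medians of -0.08 and 0.09 on the 2 versions, and the 54 at 51 to 55 nt had -0.15 and 0.13. At the other edge, the 54 peaks at positions 491 to 500 had medians of 0.34 and 0.55, and the 63 at 501 to 510 had 0.08 and 0.53.

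Peaks in the 5' UTR offer a comparison at matched positions, since a long 5' UTR can reach past position 200. The 590 peaks in the 5' UTR near the motif and between positions 200 and 500 had 118 listed (20%, 16.8% to 23.5%). This interval lies just below that of the early coding-sequence peaks. The 5' UTR peaks sat earlier, however, at a median position of 298 against 359. From 200 to 300 nt, 24.1% of the coding-sequence peaks (19.8% to 28.8%) and 17.6% of the 5' UTR peaks (13.5% to 22.3%) were listed. From 301 to 400 nt the shares were 26.7% and 20.9%, and from 401 to 500 nt 27.5% and 25.5%. Within these narrower windows the intervals of the coding sequence and the 5' UTR overlapped each time. The second-version medians were 0.33 and 0.06, 0.50 and 0.27, and 0.59 and 0.37 in the same order, higher in the coding sequence in each window.

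Calls in single replicates gave a view that does not use the scores directly. The table gives a number of peaks per arm from 0 to 3, taken here to be how many replicates had the peak called. A call in at least 2 replicates of an arm was recorded for 357 of the 1266 peaks (28.2%), against 36.2% of all peaks. The test arm had such calls for 23.0% and the comparator arm for 16.0%, against 29.4% and 24.1% of all peaks. The commonest pattern was a single call in the test arm and none in the other, in 323 peaks (25.5%), against 22.3% of all peaks. The converse was found in 284 (22.4%), against 20.7% of all peaks. No call in any replicate was recorded for 236 (18.6%), against 15.9% of all peaks. Calls outnumbered those of the other arm in the test arm for 525 peaks (41.5%, 38.7% to 44.2%) and in the comparator arm for 359 (28.4%, 25.9% to 30.9%). Over all peaks these shares were 38.0% and 29.3%, so a lean to the test arm was common to the whole table. At least 2 calls in an arm were less frequent among the early peaks than in the whole table, with an interval of 25.7% to 30.8%.

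**Figure D4:**
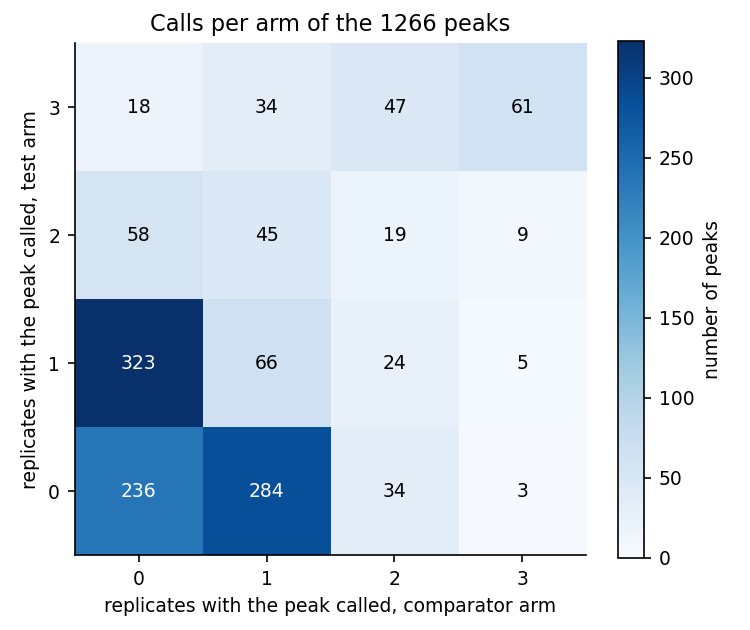
Number of the 1266 early coding-sequence peaks near the motif by replicates with the peak called in the comparator arm (x axis, 0 to 3) and in the test arm (y axis, 0 to 3), with the number of peaks in each cell. The cell with 3 test calls and no comparator call holds 18 peaks and the converse holds 3.

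Calls and scores come from the same libraries, so they are not independent. Peaks called in more test replicates had a median first-version difference of 0.53, and those called in more comparator replicates had -0.32. The second-version medians were 0.81 and 0.04. Calls in all 3 replicates of both arms were recorded for 61 early peaks (4.82%), against 9.58% of all peaks. These 61 had medians of -0.05 and 0.09, and 18 of them were listed (29.5%). All 3065 peaks of the table with calls in every replicate had medians of -0.05 and -0.04 and 26.5% listed, close to these values. Past 500 nt, the 327 coding-sequence peaks near the motif with all calls had medians of 0.21 and 0.49, and 147 were listed (45.0%).

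Calls confined to 1 arm were rare. All 3 test replicates and no comparator replicate were recorded for 18 early peaks (1.42%, 0.845% to 2.24%), and the converse for 3 (0.237%, 0.0489% to 0.691%). Of the 18, 12 were listed (66.7%), against 78.4% of the 624 peaks with this pattern in the whole table. A first-version difference above 0 was found for 16 and a second-version difference above 0 for all 18. Their first-version differences ran from -0.97 to 3.91 with a median of 0.84. At least 2 test calls with no comparator call were found in 76 early peaks (6.00%) and the converse in 37 (2.92%), against 6.50% and 3.73% of all peaks. Of all peaks, 1.95% had 3 test calls and no comparator call, and 0.918% the converse.

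The 1150 transcripts had a median of 3 peaks of any kind (quartiles 2 to 4, highest 20), against a median of 2 over all 14219 transcripts, and for 282 of them the early peak was the only one. A transcript-start peak was present on 410, a 5' UTR peak on 46, a stop-codon peak on 381 and a 3' UTR peak on 225. The 282 lone peaks had 28.7% listed (23.5% to 34.4%) and medians of 0.25 and 0.52, close to the values of the whole set. Early peaks on messages with a transcript-start peak had 24.3% listed, and those without one 27.3% (24.2% to 30.5%).

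Peaks assigned to the same message come from the same libraries, so they were compared in pairs. With the score formula not stated, how far their scores are comparable is not known. The paired peaks also differed in strength, with median mean scores of 2.16 (early) and 2.49 (start) in the start pairs. For each message the strongest early peak, by mean first-version score, was set beside the strongest peak of another class. Against the transcript start, the early peak had the higher first-version difference in 291 of 410 messages (71.0%, 66.3% to 75.3%), with a median gap of 0.34. The second version gave 68.0% and a gap of 0.32. Against the stop codon the early peak was higher in 123 of 381 (32.3%, 27.6% to 37.2%), with a median gap of -0.47, and the second version gave 31.0% and -0.48. Against later coding-sequence peaks near the motif it was higher in 179 of 386 (46.4%, 41.3% to 51.5%), with a gap of -0.06. The early peak thus had the higher difference in most pairs with a start peak and the lower one in most pairs with a stop-codon peak. The median gap to later coding-sequence peaks was the smallest of these in size. Each pairing used its own set of messages, and no message was examined for all these classes together.

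**Figure D5:**
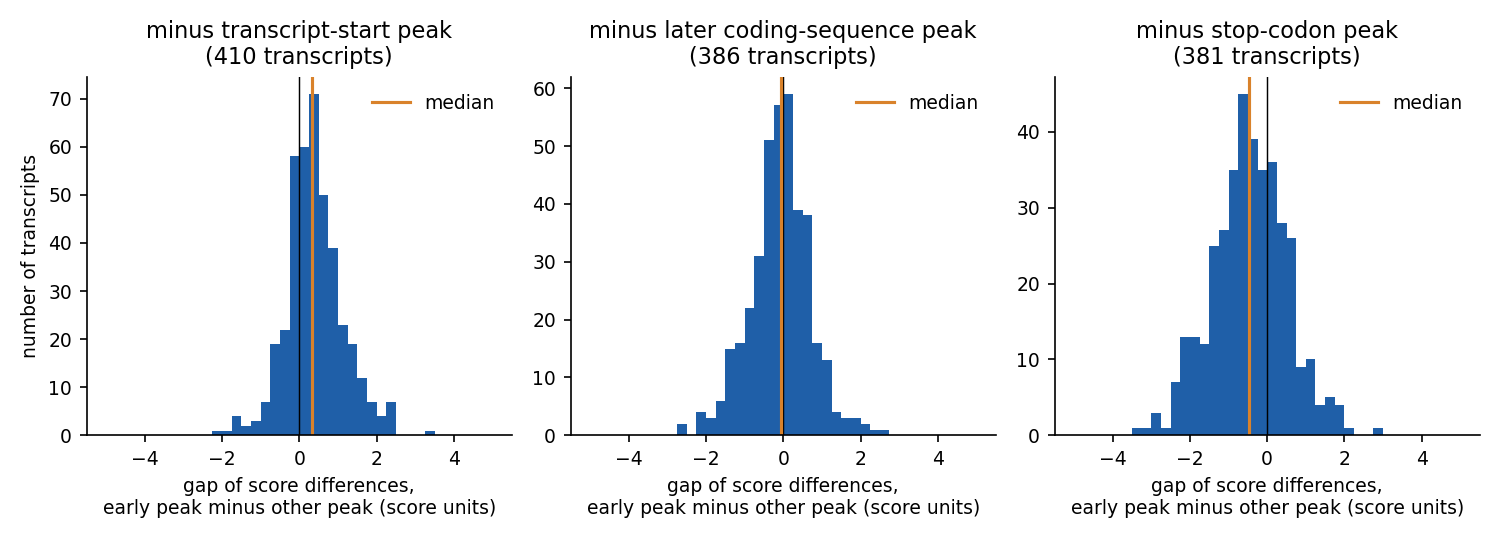
Score difference (test minus comparator arm, first version, score units) of the strongest early coding-sequence peak minus that of the strongest transcript-start, later coding-sequence or stop-codon peak of the same transcript, as numbers of transcripts per bin. The black line marks 0 and the orange line the median, which is 0.34 over 410 transcripts, -0.06 over 386 and -0.47 over 381.

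Listing leaned the same way in the pairings with the start and with the stop codon. Of the 410 messages with a start peak, the early peak alone was listed in 74, the start peak alone in 24 and both in 23. Of the 381 with a stop-codon peak, the early peak alone was listed in 45, the stop-codon peak alone in 127 and both in 46. For 163 of them neither was listed. Of the 225 with a 3' UTR peak, the early peak alone was listed in 36 and the 3' UTR peak alone in 53. The early peak was the weaker of the pair more often than not against the start: its mean score was the higher in 142 of 410 messages (34.6%), and in 171 of 381 against the stop codon (44.9%).

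Several early peaks could sit on the same message. There were 104 transcripts with 2 of them and 6 with 3. Neighbours lay close: the distances within these 122 pairs ran from 54 to 266 nt along the transcript, with a median of 99 nt. Peaks this close may share immunoprecipitated fragments, so they are not separate measurements. Of the 110 transcripts, 24 had all their early peaks listed, 21 some and 65 none.

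Genomic distances were compared with distances along the transcript to look for introns between peaks. For 108 of the 122 pairs the genomic distance equalled the distance along the transcript, so no intron lay between them (88.5%). In the other 14 the genomic distance was longer by 101 to 29754 nt. Both peaks were listed in 27 of the 108 pairs and in 0 of the 14. Counting 1 peak per pair, 39 of the 108 (36.1%) and 1 of the 14 (7.14%) were listed, so few of the 14 could be listed jointly. Some transcripts gave several pairs, and joint listing was not counted for later coding-sequence peaks. Whether an intron between peaks bears on listing was not tested. Over the same range of distances, 90.2% of 2032 pairs of later coding-sequence peaks near the motif had no intron between them. Between an early peak and a transcript-start peak, the genomic distance was the longer in 297 of 487 pairs (61.0%). The excess ran from 10 to 146965 nt, with a median of 5019 nt. An excess as small as 10 nt need not be an intron. The early peaks of the 190 pairs with no intron between had medians of 0.18 and 0.56 and 25.8% listed. Those of the 297 pairs with the longer genomic distance had 0.09 and 0.42 and 24.2% listed. The start peaks of the same pairs had first-version medians of -0.05 with no intron between and -0.41 with the longer genomic distance. Their second-version medians were 0.27 and -0.05 in the same order. Median distances along the transcript were 202 and 278 nt.

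Single peaks are identified by transcript and position, on coordinates taken as mouse build mm9. Because no name table here matched the transcript identifiers, no gene is named, and no base sequence was read since the reference is of another build. The largest difference among the listed early peaks lay on uc007iou.2, on chromosome 11 at position 46500484, at nt 500 of the transcript and 41 nt from the motif. The authors' deposited table gives it a test-arm score of 4.12 and a comparator-arm score of 0.20, with unadjusted p = 0.000155. On the second version the authors' deposited table gives 3.31 and -0.34 with unadjusted p = 0.00110. Every test replicate and no comparator replicate had it called, and its first-version p is the smallest of the set.

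The next largest was on uc009tgl.2, on chromosome X at position 53914564, at nt 332. The authors' deposited table gives first-version scores of 3.40 and 0 with unadjusted p = 0.00128, and second-version scores of 2.61 and -0.43 with p = 0.00402. That peak was called in only 1 test replicate. The third to the fifth largest lay on chromosomes 3, 1 and 8 at positions 103771907, 93440851 and 109981884. The authors' deposited table gives them first-version differences of 3.13, 2.94 and 2.71 and second-version differences of 2.32, 2.73 and 0.32. Each of these was called in 1 test replicate and in no comparator replicate. So 4 of these 5 large differences belonged to peaks called in a single replicate.

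The most negative differences belonged to peaks with comparator calls and no test call. On uc007dva.1, on chromosome 1 at position 180253801 and nt 296, the authors' deposited table gives a test-arm score of -0.14 and a comparator-arm score of 2.62, with unadjusted p = 0.0533. Its second-version scores in the authors' deposited table are -2.52 and 0.05, p = 0.0403. On uc007exe.2, on chromosome 10 at position 40602712 and nt 238, the authors' deposited table gives 0.55 and 3.07, unadjusted p = 0.0912, and second-version scores of -0.43 and 1.16, p = 0.102. Both were called in 1 comparator replicate and in no test replicate. The next 3, on chromosomes 4, 7 and 8 at positions 154442920, 3646351 and 74103341, have differences of -2.45, -2.22 and -2.14 in the authors' deposited table.

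The strongest early peaks were high in both arms. The highest mean score was at nt 249 of a transcript on chromosome 2, position 34678512, where the authors' deposited table gives a test-arm score of 7.25 and a comparator-arm score of 5.82, with unadjusted p = 0.141. Its second-version scores in the authors' deposited table are 4.58 and 3.69, p = 0.0276. The next 4 lay on chromosomes 3, 9, 4 and 6 at positions 135128368, 59333886, 124482090 and 13820525. The authors' deposited table gives them test-arm scores of 6.62, 6.04, 6.05 and 6.11 and comparator-arm scores of 5.65, 5.66, 5.14 and 4.97. All 5 lay within 9 nt of the motif and at or before position 352, and 4 of the 5 were listed, each with a first-version p above 0.1 and a second-version p below it.

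Among the 18 peaks called in all test replicates alone, the largest difference after uc007iou.2 was at nt 353 of a transcript on chromosome 16, position 43619453, 2 nt from the motif. The authors' deposited table gives it scores of 4.58 and 2.01, unadjusted p = 0.00370, and second-version scores of 4.55 and 2.53, p = 0.0642. The third and the fourth, on chromosomes 18 and 7 at positions 5049124 and 111463060, have first-version differences of 2.08 and 1.76 in the authors' deposited table, with unadjusted p = 0.168 and 0.159, and are not listed. The fifth lay at nt 493 of a transcript on chromosome 2, position 60589462, where the authors' deposited table gives 2.77 and 1.33, unadjusted p = 0.0168, and a second-version p of 0.114. The 3 peaks called in all comparator replicates alone lay on chromosomes 1, 5 and 8 at positions 132345149, 137463363 and 72290578. Their first-version differences in the authors' deposited table are -1.52, -1.03 and 0.71, and their second-version differences 0.43, -0.32 and 0.54. Calls and scores thus went in opposite directions for the last of them, and for the first on the second version.

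The 6 messages with 3 early peaks show how neighbours compare. On chromosome 11 a transcript had early peaks at nt 231, 309 and 397, at most 13 nt from the motif. The authors' deposited table gives their first-version differences as 0.59, 0.91 and 0.75 and their second-version differences as 0.67, 1.38 and 1.26, and all 3 are listed. On chromosome 6 another had peaks at nt 349, 428 and 492 with differences of 0.52, 0.98 and 1.09 in the authors' deposited table, of which the last 2 are listed. On chromosome 13 a transcript with peaks at nt 257, 321 and 381 went the other way on the first version, with -0.06, -0.20 and -0.37 in the authors' deposited table. Its second-version differences in the authors' deposited table are 0.73, 1.00 and 1.08, so the versions disagree in sign for all 3 peaks, and none is listed. The other 3 transcripts, on chromosomes 13 and 19, had first-version differences above 0 at every early peak and 1 listed peak between them.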

How the data were processed

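Groups of the 12 m6A-seq libraries follow the genotype and title labels. The labels' protocols describe barcoded poly(A) RNA from which the IP fraction was enriched in rounds with a polyclonal antibody to m6A. Tools listed in the submitters' processing notes are HTSeq, STAR, cutadapt, DESeq2 and SAMtools (1.3.1), with mouse builds mm9 and mm10; which step each served, the peak caller, the score formula and the authors' test are not stated there. Per the file headers, the deposited values are the authors' score of each arm in 2 versions, their difference and an unadjusted p-value per version. Of all peaks, 164 lie past the ends of 7 GRCm38 chromosomes, so positions were taken as mm9, and no sequence was read from the GRCm38 reference. The name tables used here matched 0 of the 14219 transcript identifiers, so the gene lists of the design could not be applied.

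Peaks were matched to the authors' list by position and transcript (9005 of 9005 found), and p-values were adjusted by Benjamini-Hochberg over the whole table. Sets by distance omit 8 peaks that lack a motif distance. The rule for named peaks was the 5 largest listed and 5 most negative differences, the 5 highest scores, up to 5 peaks called only in all replicates of 1 arm in each direction, and the transcripts with most chosen peaks; identifiers are printed for 4 only, and not every peak is named. The peaks and lists were chosen with earlier results of these data known. Bins of position and distance, matched 5' UTR windows, within-transcript pairs and intron counts were chosen after seeing the data. Functions were tested on a simulated table with planted peaks. Calculations used Python 3.11.15, numpy 2.4.6, pandas 2.3.3, scipy 1.17.1 and matplotlib 3.10.9.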

Additional observations from a re-analysis of the deposited data

How the results depend on the processing

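Results were recomputed under the alternatives set out at the start. The listed share was 26.2% and stayed inside its interval with motif distances up to 100 nt, positions up to 300 or 1000 nt and the strongest peak per transcript; it was 29.0% within 20 nt of the motif and 36.4% among peaks called in at least 2 replicates of an arm. The median difference of 0.19 became 0.31 among those well-called peaks and 0.51 on the second score version, and no alternative turned its sign. Peaks with p under 0.1 and the test arm higher numbered 132 (10.5%, against 14.2% of all peaks). They were 35 of the peaks up to 300 nt (9.51%) and 400 of those up to 1000 nt (11.3%). Among those with 2 calls they were 54 (15.1%), so the count fell while the share rose. The count was 261 (20.6%) on the second version, 70 (5.56%) at p under 0.05 and 0 at an adjusted p under 0.1. With the comparator arm higher there were 61 (4.85%, against 6.12% of all peaks). These became 33 within 20 nt (3.98%), 21 up to 300 nt (5.71%) and 138 up to 1000 nt (3.91%). There were 23 among those with 2 calls (6.44%), 28 at p under 0.05 (2.22%) and 0 after adjustment. Peaks called in at least 2 replicates of an arm numbered 357 (28.2%, against 36.2% of all peaks). They were 107 up to 300 nt (29.0%) and 967 up to 1000 nt (27.3%). When all 3 replicates were required there were 177 (14.0%), for which no matching share of all peaks was computed. Counts over narrower or wider windows differ because fewer or more peaks enter. No paired analysis was possible because the table holds 1 pooled score per arm, and for the same reason no replicate could be left out. Depth is unknown, so no limit from it can be set on a score.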

Other observations

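The early peaks lay on 20 chromosomes, and listed shares per chromosome rest on few peaks each. On chromosome 2, which held the most, 31 of 128 were listed (24.2%, 17.1% to 32.6%), and on chromosome X 12 of 45 (26.7%, 14.6% to 41.9%). Median first-version differences per chromosome ran from -0.17 on chromosome 12 (37 peaks) to 0.45 on chromosome 18 (33 peaks).

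Among the 332 listed early peaks, 59 had the comparator arm higher on the first version and 7 had it higher on the second. The opposite of the list's rule, a p under 0.1 on either version with the comparator arm higher on either version, was met by 142 of the 1266 early peaks and by 3430 of all 32009 peaks. On both versions at once, 10 early peaks had p under 0.1 and a higher score in the comparator arm. No matching share of all peaks was computed for these 10, or for the 59 and the 7 listed peaks, so none of these counts is read as low or high.

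A second position column differed from the one used here by a median of 8 nt among the early peaks and by at most 97 nt.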
